A study of Bos taurus with 8 samples.

Results

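The genes described here are 10 genes of triglyceride synthesis and storage in bovine granulosa cells: GPAT3, GPAT4, DGAT1, DGAT2, LPIN1, LPIN2, PLIN2, PNPLA2, CD36 and PPARG. They are read by 17 of the 43794 gene probes of a 2-colour array, and 16 of these probes were bright enough to be tested, at least 1 for each gene. The platform annotation writes GPAT3 as AGPAT9 and GPAT4 as AGPAT6. The genes were selected on function together with measured ratios of FSH over control in these same arrays, in which GPAT3 was among the genes highest with FSH and PPARG among those lowest. Their ratios are therefore given as a description, with standard errors and without a p-value. These errors come from limma, a linear model fit that draws the variance of each probe towards that of all tested probes. For genes whose replicates vary most they are smaller than the plain SE of the 4 ratios. 4 lists with 81 other measured genes of lipid metabolism were tested, and these lists too were chosen with earlier results of these data known.

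Granulosa cells surround the oocyte in the follicle and respond to follicle-stimulating hormone (FSH) through a receptor that raises cyclic AMP. In the treated group, cells were kept in culture for 48 h and received FSH at 1 ng/ml for the last 4 h. The control group had the same culture without FSH. All cells came from follicles of 2 to 6 mm dissected from slaughterhouse ovaries, and the labels give 4 follicles or ovaries for each biological replicate, without saying which. Amplified RNA of a treated and of a control culture was hybridised together on each of 8 arrays, which form 4 dye-swap pairs, so that each replicate number has an array with FSH in Cy5 and an array with FSH in Cy3. Nothing in the labels says that the treated and control cultures of a replicate number came from the same ovaries, so errors measure the spread between these samples.

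Triglyceride is built stepwise on glycerol-3-phosphate in the endoplasmic reticulum. GPAT3 and GPAT4 attach the first fatty acid, acyltransferases of the AGPAT family add the next, lipins such as LPIN1 and LPIN2 remove the phosphate, and DGAT1 or DGAT2 adds the last fatty acid. The product is stored in droplets coated by PLIN2, and PNPLA2 (adipose triglyceride lipase) starts its release. CD36 takes up fatty acids at the cell surface. PPARG, a nuclear receptor that pairs with RXR and is activated by fatty acid derivatives, drives lipid storage genes in fat cells. In the rat ovary, PPARG is found in granulosa cells and its transcript declines after the luteinising hormone surge.

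Replicate 3 stood apart from the other replicates for GPAT3, PLIN2 and PPARG: the library labelled control in it lay at the level of the FSH libraries. Whether the RNA of this library matches its control label was not tested, and every mean over 4 replicates includes it. The mean ratio of each of the 10 genes is therefore given with and without replicate 3. Over all tested probes, 213, 852, 242 and 928 had a log2 ratio beyond 1 in either direction in replicates 1 to 4, so replicate 3 was not the only one with few large ratios. Of 10 markers of granulosa cells, 9 exceeded a limit set at the 95th percentile of negative control spots in all 16 channels. The exception was FOXL2, which did so in 5 of 8 FSH and 7 of 8 control channels. Of 3 theca markers, INSL3 exceeded that limit in 8 FSH and 8 control channels, CYP17A1 in 7 FSH and 8 control channels and LHCGR in 2 FSH and 2 control channels. Of 5 adipocyte markers, PLIN1, FABP4 and LEP exceeded it in all 16 channels, CIDEC in 7 FSH and 8 control channels and ADIPOQ in 4 FSH and 4 control channels. All 16 channels were above it for 5 of 8 macrophage and leukocyte markers and for 4 of 7 endothelium markers.

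GPAT3, an acyltransferase of the first step, showed the largest difference of the 10 genes. By its brightest probe (EMBV3_16614) its level was 15.11, 15.28, 15.07 and 15.19 (log2 intensity) in the FSH libraries of replicates 1 to 4, against 11.67, 10.35, 15.18 and 10.91 in the control libraries. All FSH libraries and the control library of replicate 3 were high, whereas the other 3 control libraries lay far lower, so the groups overlapped through that library alone. The log2 ratio of FSH over control was 3.44, 4.93, -0.12 and 4.28 in replicates 1 to 4. Its mean was 3.13 ± 0.89 (limma SE, n = 4 replicates), or 8.76-fold, and the SD of the 4 ratios was 2.25. Without replicate 3 the mean was 4.21 ± 0.75 (SD, n = 3), or 18.6-fold. Among the 36531 tested probes this probe had rank 2 by its mean ratio. In bulk RNA, more cells of a type and more RNA per cell cannot be told apart, here and below.

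The raw intensities show the same picture before any correction. With FSH in Cy5, GPAT3 read 33731, 37492, 36653 and 35513 in the FSH channel of replicates 1 to 4, against 3104, 1169, 35103 and 1750 in the control channel. With FSH in Cy3 it read 36096, 37621, 35621 and 35996 in the FSH channel, against 3782, 1679, 36980 and 2562 in the control channel. The FSH readings were 79.9% to 95.7% of the brightest gene probe of their channel, and at most 194 gene probes were brighter. In replicate 3 the control readings were 86.8% and 93.5% of the brightest probe, against 2.96% to 8.996% in the controls of the other replicates. No member spot had a saturated median pixel, but levels this near the top of the scale leave little room for differences among the FSH libraries. How much the ratio is compressed there was not tested.

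The other GPAT3 probes had the same pattern at lower brightness. For the probe EMBV3_42168 the level was 10.56, 11.92, 11.14 and 11.14 in the FSH libraries of replicates 1 to 4, against 7.95, 7.63, 11.45 and 7.54 in the controls. Its mean log2 ratio was 2.55 ± 0.80 (SE, n = 4), and 3.50 without replicate 3. For EMBV3_20148 the level was 8.83, 9.03, 8.56 and 7.99 with FSH, against 6.998, 7.06, 8.64 and 6.91 in the controls, with a mean log2 ratio of 1.20 ± 0.37, and 1.63 without replicate 3. This dim probe read as low as 1.00 times the negative control limit in the control channels. All GPAT3 probes thus placed the control library of replicate 3 with the FSH libraries. The probes share their RNA and are no replicates of each other.

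PPARG lay in the other direction. Its single probe (EMBV3_23103) stood at 10.78, 11.18, 10.22 and 10.48 in the FSH libraries of replicates 1 to 4, against 12.22, 13.08, 10.47 and 12.43 in the control libraries. The FSH libraries were low, the controls of replicates 1, 2 and 4 were high, and the control of replicate 3 lay within the range of the FSH libraries. The log2 ratio was -1.43, -1.90, -0.24 and -1.95, with a mean of -1.38 ± 0.32 (limma SE, n = 4) and an SD of 0.79. The level in control libraries was thus 2.61 times that in FSH libraries. The ratio was below 0 on 8 of 8 arrays, replicate 3 included. Without replicate 3 the mean was -1.76 ± 0.28 (SD, n = 3). By its mean ratio the probe had rank 11 from the bottom among all tested probes. Its raw readings reached at most 24.4% of the brightest probe of their channel, so it lay well below the brightest probes.

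PLIN2, the droplet coat protein, was higher with FSH in 2 replicates and differed little in the others. Its level was 13.87, 14.48, 14.42 and 13.96 in the FSH libraries of replicates 1 to 4, against 13.65, 12.60, 14.40 and 12.78 in the controls. The FSH libraries lay close together, while the controls spread over 1.80 log2 units and that of replicate 3 was again the highest. The log2 ratio was 0.22, 1.88, 0.02 and 1.18, with a mean of 0.82 ± 0.34 (limma SE, n = 4) and an SD of 0.87. Without replicate 3 the mean was 1.09 ± 0.83 (SD, n = 3). Replicate 1 separates PLIN2 from GPAT3: the GPAT3 ratio there was 3.44, and that of PLIN2 only 0.22.

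**Figure D1:**
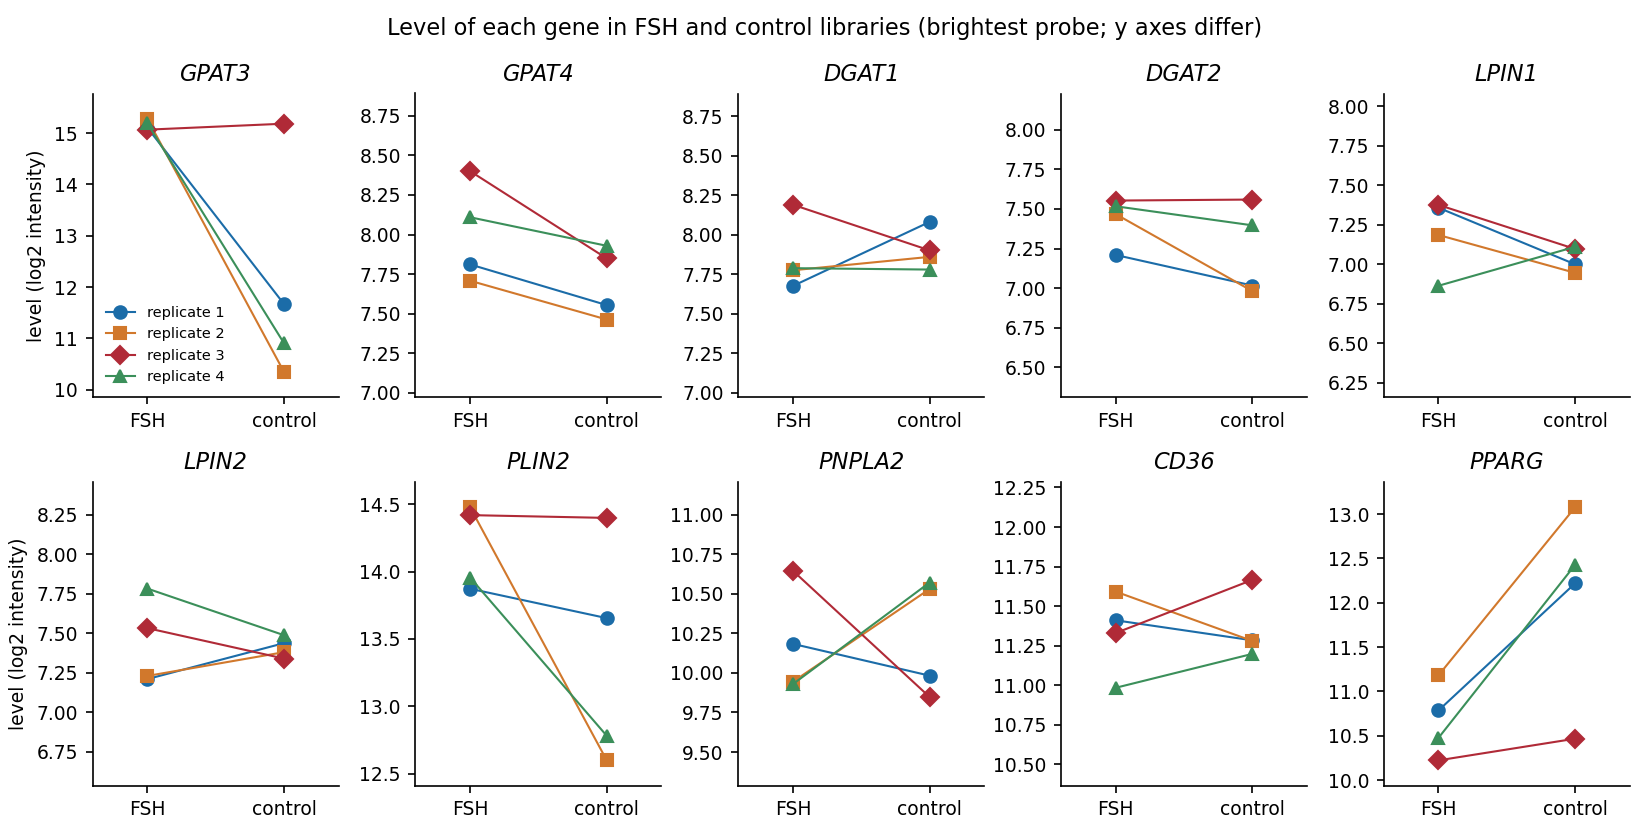
Level (log2 intensity after scaling between arrays) of each of the 10 genes in FSH and control libraries, by the brightest probe. Each line joins the libraries of a replicate number, and the y axes differ between panels. For GPAT3, PLIN2 and PPARG the control library of replicate 3 (diamond) lies with the FSH libraries.

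PNPLA2, the lipase that opposes storage, differed in opposite directions between replicates. Its level was 10.18, 9.94, 10.65 and 9.93 in the FSH libraries of replicates 1 to 4, against 9.98, 10.53, 9.85 and 10.57 in the controls. The groups overlapped: the controls of replicates 2 and 4 were among the highest libraries, and so was the FSH library of replicate 3. The log2 ratio was 0.20, -0.59, 0.80 and -0.64, with a mean of -0.06 ± 0.27 (SE, n = 4). Without replicate 3 the mean was -0.34 ± 0.47 (SD, n = 3). The other PNPLA2 probe exceeded the negative control limit on 1 of 8 arrays and was not tested.

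GPAT4, the sister enzyme of GPAT3 at the first step, differed by far less but in the same direction in every replicate. Its level was 7.81, 7.71, 8.40 and 8.11 with FSH, against 7.55, 7.46, 7.85 and 7.93 in the controls. The log2 ratio was 0.26, 0.25, 0.55 and 0.18, with a mean of 0.31 ± 0.08 (SE, n = 4), and it was above 0 on 8 of 8 arrays. Its size depended on the dye, with a mean of 0.19 and a lowest value of 0.02 with FSH in Cy5, against a mean of 0.43 with FSH in Cy3. Without replicate 3 the mean was 0.23 ± 0.04 (SD, n = 3). In contrast to GPAT3, PLIN2 and PPARG, its ratio was largest in replicate 3, and the groups overlapped because replicates differed in level. GPAT4 read 1.43 to 2.52 times the negative control limit in FSH channels and 1.34 to 1.93 times in control channels, so it was dim in both groups.

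The lipins and diacylglycerol acyltransferases were dim, and their mean ratios lay within about 1 SD over the replicates. DGAT2 had log2 ratios of 0.19, 0.49, -0.01 and 0.12 by its brighter probe, with a mean of 0.20 ± 0.09 (SE, n = 4), and 0.06 ± 0.05 by the other. DGAT1 had -0.40, -0.08, 0.29 and 0.01, with a mean of -0.05 ± 0.12. LPIN1, which also acts as a coactivator of transcription, had 0.36, 0.24, 0.28 and -0.25, with a mean of 0.16 ± 0.11. LPIN2 had -0.23, -0.15, 0.19 and 0.29 by its brighter probe, with a mean of 0.03 ± 0.11, and the other probe was at -0.13 ± 0.13. The signs of DGAT1 and LPIN2 thus differed between replicates. Without replicate 3 the means by the brighter or only probe were 0.27 for DGAT2, -0.16 for DGAT1, 0.12 for LPIN1 and -0.03 for LPIN2, so that of LPIN2 turned its sign. These probes read at most 2.30 times the negative control limit, so small ratios do not show that their transcripts were unaffected.

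CD36, the fatty acid transporter, had no common direction, and its probes disagreed. By the brightest probe (EMBV3_26275) its level was 11.41, 11.59, 11.33 and 10.98 in the FSH libraries of replicates 1 to 4, against 11.28, 11.28, 11.67 and 11.20 in the controls. The groups overlapped in part, with the control of replicate 3 above every FSH library and the FSH library of replicate 4 below every control. The mean log2 ratio was -0.03 ± 0.12 (SE, n = 4), and 0.07 without replicate 3. The probe EMBV3_07474 had log2 ratios of -0.42, -0.48, 0.20 and -0.47, with a mean of -0.29 ± 0.14, and -0.46 without replicate 3. It also varied far more between replicate numbers, at 10.01, 7.71, 9.01 and 9.20 with FSH and 10.43, 8.19, 8.81 and 9.68 in the controls. FSH and control libraries of a number moved together there, and they share their arrays. The probe EMBV3_38397 was at -0.04 ± 0.11 and followed EMBV3_07474 in its high level in replicate 1 and low level in replicate 2.

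**Figure D2:**
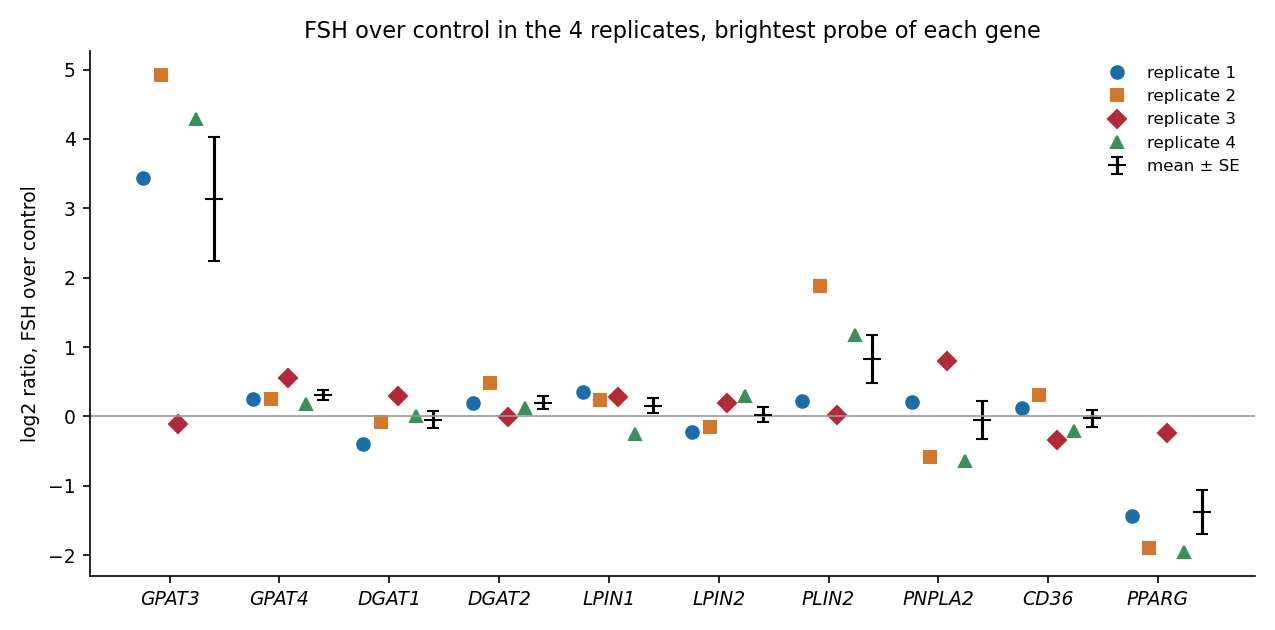
Log2 ratio of FSH over control in replicates 1 to 4 for the brightest probe of each gene, with the mean and limma standard error in black. GPAT3, PLIN2 and PPARG lie away from 0 in some or all of replicates 1, 2 and 4 and near 0 in replicate 3, while GPAT4 lies above 0 in each.

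Of the 10 genes, 6 had a mean ratio above 0 and 4 below 0 by the brightest probe, and the median was 0.09, against -0.00161 over all tested probes. With limma over the 4 replicate means, 0% of the tested probes passed an adjusted p under 0.05, and no member did. In a limma fit of the 8 arrays with the replicate number as a block, described below, 1 member was called higher and 1 lower, and without replicate 3 these were 2 and 1. Of all tested probes that fit called 2.06% higher and 1.44% lower, and without replicate 3 it called 3.83% higher and 3.36% lower. The sign was the same in all 4 replicates for 3 genes (GPAT4, PLIN2 and PPARG), where 20.4% of all tested probes had such a sign. The levels of the FSH and control libraries overlapped for all 10 genes by the brightest probe, against 2.98% of tested probes without overlap. Without replicate 3 there was no overlap for 3 genes (GPAT3, PLIN2 and PPARG), against 13.1% of tested probes. The shares cover all tested probes, not only the brightest of each gene. As the genes were chosen with these ratios known, nothing is read from these counts.

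The dyes offer a measure that the choice of genes did not use. The dye component of a replicate, its ratio with FSH in Cy5 minus its mean over both orientations, was tested against 0. With limma, 59.2% of all tested probes had a dye component that differed from 0 at an adjusted p under 0.05. Among the tested member probes it was 9 of 16, a share near that background. GPAT3 was at 3.43 with FSH in Cy5 and 2.84 with FSH in Cy3, a dye component of 0.30 ± 0.07 (SE, limma adjusted p = 0.00467). CD36 had the largest, at -0.50 ± 0.04 (limma adjusted p = 3.13e-05) by its brightest probe. The ratio of that probe was below 0 on all 4 arrays with FSH in Cy5, with a mean of -0.53. It was above 0 on all 4 with FSH in Cy3, with a mean of 0.47. The other CD36 probes did not share this. Their dye components were 0.005 (EMBV3_07474, limma adjusted p = 0.914) and 0.13 (EMBV3_38397, limma adjusted p = 0.00372). By the brightest probe DGAT1, LPIN2 and PNPLA2 also changed sign with the dye. DGAT1 was at -0.22 and 0.12, LPIN2 at -0.12 and 0.18 and PNPLA2 at -0.13 and 0.02 with FSH in Cy5 and in Cy3. The dimmer DGAT2 probe did so too, at 0.27 and -0.15. GPAT4 kept its sign, at 0.19 and 0.43, with a dye component of -0.12 ± 0.04 (limma adjusted p = 0.0268). PPARG was at -1.35 and -1.42 and PLIN2 at 0.85 and 0.80, so orientation hardly moved PPARG and PLIN2. Each orientation was run on a slide of its own by the names of the scans, so dye and slide cannot be told apart. Averaging the orientations cancels a dye effect of equal size.

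**Figure D3:**
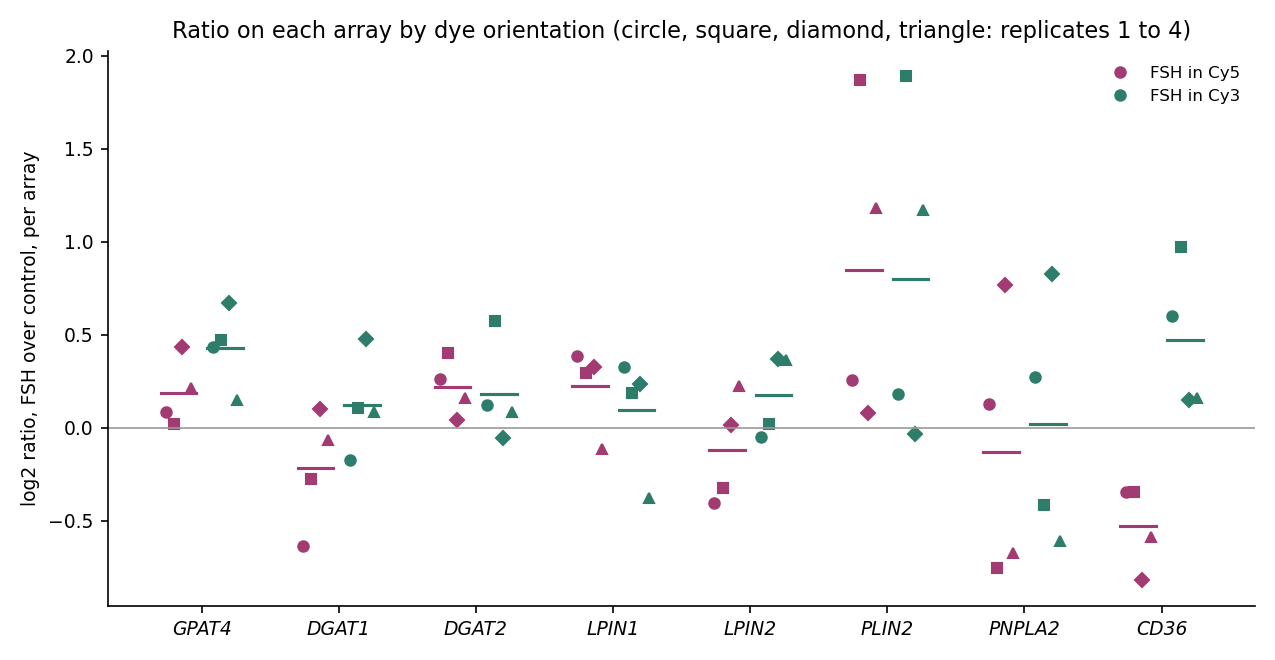
Log2 ratio of FSH over control on each of the 8 arrays, by dye orientation, for the 8 genes other than GPAT3 and PPARG, with a bar at each mean. By its brightest probe CD36 lies below 0 on every array with FSH in Cy5 and above 0 on every array with FSH in Cy3. PLIN2 is alike in both.

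The genes whose levels over the 8 libraries lay nearest to those of GPAT3 were compared by the root mean square difference of centred log2 levels. They were NR4A1 (0.34), HAS2 (0.50), BAMBI (0.57), PLK2 (0.57) and ADAMTS1 (0.63), against a median of 2.06 over all named genes. NR4A1 is an immediate-early nuclear receptor, HAS2 makes hyaluronan and ADAMTS1 is a protease. PLIN2, at 1.46, was the nearest of the other 9 members. For PPARG the nearest were MAP3K5 (0.18), a stress kinase, NOS2 (0.19), which makes nitric oxide, CNIH3 (0.26), ANK3 (0.30) and PGF (0.35), a vascular growth factor, against a median of 1.01. MAP3K5 had log2 ratios of -1.21, -1.94, -0.04 and -1.55, and NOS2 of -1.52, -2.47, -0.26 and -1.63, in replicates 1 to 4. In both, replicate 3 lay nearest to 0, which largely follows from choosing them by likeness to PPARG over all 8 libraries. Of the members PNPLA2 was nearest to PPARG, at 0.94. A gene of constant level over the libraries would lie at 1.00 from PPARG and at 2.06 from GPAT3. Both medians were near that distance, and PNPLA2 was hardly closer to PPARG than such a gene.

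The 81 other genes of lipid metabolism, of 94 listed, lay on both sides of 0, with 39 above 0 and 42 below 0, and a median log2 ratio of -0.01. With limma over the replicate means, 0 of them passed. Before adjustment, 8 genes lay higher and 4 lower at p under 0.05, against 6.94% higher and 5.26% lower of all tested probes. The genes are counted by their brightest probe, whereas the shares cover all tested probes, dimmer and unnamed ones included, so they are not strictly alike. In a fit of the 8 arrays that took the replicate number as a random block beside a term for the dye, here the blocked fit, 3 rose and 1 fell, where 2.06% of all tested probes rose and 1.44% fell. That fit uses 1 correlation within replicates for all probes, so its errors are too small for a probe whose replicates spread more than that. As the lists were chosen with earlier results of these data known, the counts of called genes are no independent test.

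Among 20 measured enzymes of acyl-CoA activation and glycerolipid synthesis, 12 were above 0 and the median was 0.05. ACSL3, which activates fatty acids and sits on nascent droplets, was at 0.49 ± 0.12 (SE, n = 4), and the blocked limma fit called it higher (adjusted p = 0.0326). However, another of its probes, nearly as bright, was at -0.26 and below 0 in all 4 replicates. AGPAT4, an acyltransferase of the AGPAT family, was at 0.65 ± 0.24. Its ratios of 0.57, 1.18, -0.18 and 1.03 in replicates 1 to 4 were above 0 except in replicate 3, where that of GPAT3 was also below 0. PLPP3, a phospholipid phosphatase, was at 0.58 ± 0.22 with 0.60, 0.87, -0.22 and 1.04. GPAM, the mitochondrial enzyme of the first step, was at -0.32 ± 0.13. None of these 3 passed in the blocked fit (adjusted p = 0.0962, 0.112 and 0.233).

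Of 21 other droplet proteins and lipases, 9 were above 0, with a median of -0.02, and 0 were called in the blocked fit. The droplet protein AUP1 was at 0.55 ± 0.16 and above 0 on 8 of 8 arrays (adjusted p = 0.0516 in the blocked fit). FITM1, which helps droplets form, was at 0.27 ± 0.05, also above 0 on 8 of 8 arrays. The droplet GTPase RAB18 was at -0.23 ± 0.05. CIDEB was at 0.13 ± 0.06, but at 0.40 with FSH in Cy5 and -0.13 with FSH in Cy3. A dimmer CIDEB probe was at -0.01.

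Of 19 genes of fatty acid uptake, binding and synthesis, 9 were above 0, with a median of -0.03. FADS1, a fatty acid desaturase, was at 0.80 ± 0.21, called higher by the blocked fit (adjusted p = 0.0293). Unlike GPAT3, it had its larger ratios in replicates 3 and 4, at 1.06 and 1.405, against 0.41 and 0.35 in replicates 1 and 2. A dimmer FADS1 probe was at 0.01, and without replicate 3 the call was lost (adjusted p = 0.0677). SREBF1, a transcription factor of lipid synthesis genes, was at 0.32 ± 0.06, called higher as well (adjusted p = 0.0405), with ratios of 0.46, 0.33, 0.28 and 0.19. The call of SREBF1 was also lost without replicate 3 (adjusted p = 0.0502), and its ratio was 0.09 with FSH in Cy5 and 0.54 with FSH in Cy3. SCD5 was at -0.24 ± 0.08, but at 0.01 with FSH in Cy5 and -0.48 with FSH in Cy3. The fatty acid transporter SLC27A4 was at 0.15 ± 0.05.

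Of 21 receptors, coregulators and genes of fatty acid oxidation around the PPAR family, 9 were above 0, with a median of -0.03. ACADL, a dehydrogenase of mitochondrial fatty acid oxidation, was at -0.59 ± 0.15, called lower by the blocked fit (adjusted p = 0.04999). Its ratios of -0.67, -0.72, -0.05 and -0.92 in replicates 1 to 4 were near 0 in replicate 3. ETFDH, which passes electrons from that pathway to the respiratory chain, was at -0.43 ± 0.15, and CPT2, which completes fatty acid import into mitochondria, at -0.34 ± 0.15. The coactivator NCOA3 was at -0.12 ± 0.05, but at 0.10 with FSH in Cy5 and -0.33 with FSH in Cy3. Without replicate 3 in the blocked fit, an alternative chosen after seeing the data, 6 of the 81 genes rose and 4 fell, where 3.83% of all tested probes rose and 3.36% fell. AGPAT4 (0.93, adjusted p = 0.00697), PLPP3 (0.84, adjusted p = 0.00531) and AUP1 (0.71, adjusted p = 0.0136) were among those that rose in it. ACADL (-0.77, adjusted p = 0.00945) and CPT2 (-0.51, adjusted p = 0.0185) fell. That replicate was left out because of its ratios, so the smaller p of this fit is no independent test.

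**Figure D4:**
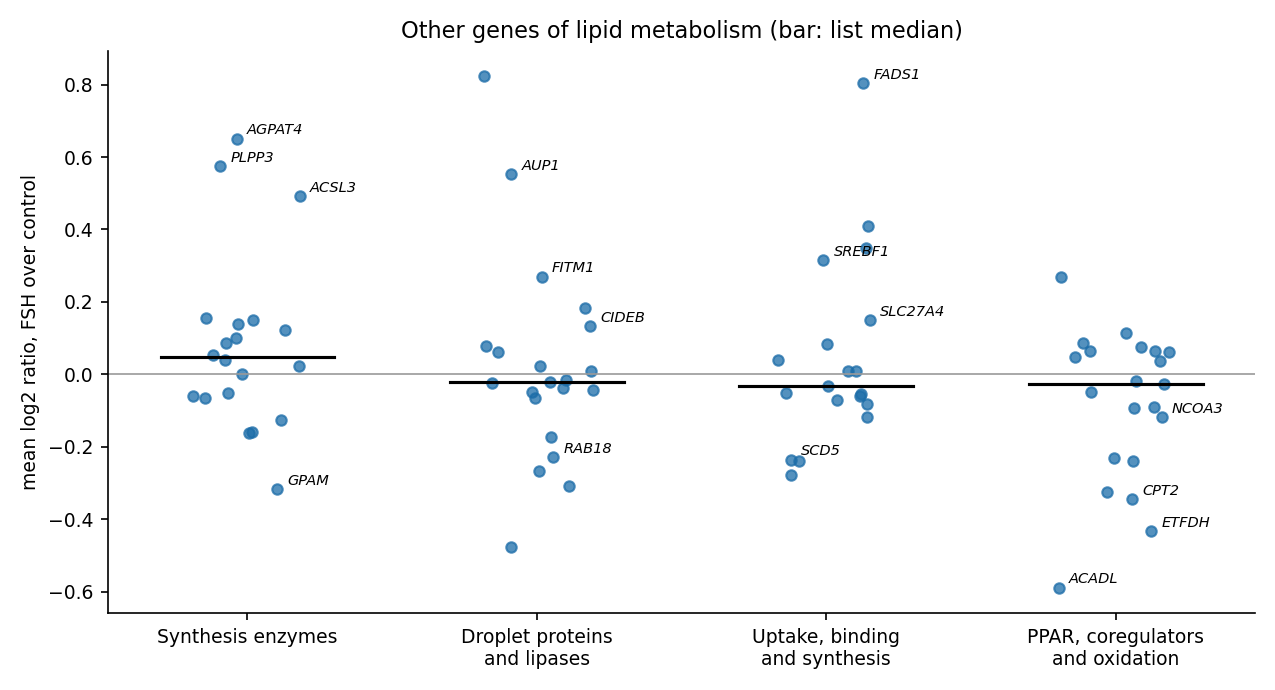
Mean log2 ratio of FSH over control of 81 other genes of lipid metabolism in 4 lists, by the brightest probe, with a bar at each list's median and the names of the 4 genes of lowest unadjusted p in each list. The medians lie between -0.03 and 0.05, and FADS1 and AGPAT4 are the named genes farthest from 0.

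Markers of other cell types that could carry CD36, PLIN2 or PPARG were read in the same libraries. The summed linear level of 5 adipocyte markers was 718 to 824 in FSH libraries, against 719 to 805 in control libraries. That of 8 macrophage and leukocyte markers was 1247 to 3432 with FSH, against 1073 to 2326 in controls. For 7 endothelium markers it was 1061 to 1226 with FSH, against 969 to 1319 in controls. For 3 theca markers it was 422 to 560 with FSH, against 415 to 540 in controls. These ranges overlapped for each of these 4 lists. Within the endothelium list, 3 markers had a mean log2 ratio above 0 and 4 below. KDR was at 0.81 ± 0.27 (SE), above the negative control limit in 8 FSH but 3 control channels, and CLDN5 was at -0.29 ± 0.08. The summed level of 10 granulosa markers was 126439 to 134435 with FSH, against 105544 to 125484 in controls, and these ranges did not overlap. Such a linear sum is weighted to the brightest markers. The median log2 ratio of these 10 was 0.08, with 7 above 0 and 3 below. Those below were FSHR (-0.12), AMH (-0.12) and FOXL2 (-0.18), and those above included NR5A2 (0.69), CYP11A1 (0.75) and CYP19A1 (0.78). Whether the libraries differed in their share of granulosa cells was not tested. The part of these markers in the ratios above was not tested.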

How the data were processed

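Per the file headers, the deposited scanner tables hold the raw intensity of each spot at 532 nm (Cy3) and 635 nm (Cy5) with its local background; the authors neither subtracted nor normalised these columns. Per the labels' protocols, total RNA was amplified by T7 RNA polymerase and labelled without an enzyme. The series-wide table of ratios (8 columns) was not used.

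Mean intensities were corrected by the median background with normexp (offset 50) and loess within arrays, control spots having weight 0 (limma 3.58.1, R 4.3.3). The 15 to 53 spots per array marked as ignored were left out, and none belonged to the 10 genes. Each array's log2 ratio was set as FSH over control, and both arrays of a replicate number were averaged. Levels were read after Aquantile scaling and averaged likewise. A probe was tested if either channel exceeded the 95th percentile of 153 negative control spots on 4 of 8 arrays, which gave 36531 probes. Means were tested against 0 (lmFit, eBayes, two-sided), and p-values were adjusted by Benjamini-Hochberg across these probes, with a threshold of 0.05. The fit was tested on simulated data.

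Same-numbered arrays correlated across probes at 0.357 to 0.61, and arrays of other numbers and opposite dye at -0.399 to 0.285. Those of the same dye reached 0.728, so the check of the pairing holds only across dyes. The blocked fit estimated a correlation within replicates of 0.722.

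Symbols came from the platform annotation, updated through RefSeq where a symbol was a synonym of 1 gene (1524 of 21790 probes). No probe had several symbols, and 22004 had none. Per gene, the brightest tested probe leads. Named are the 10 genes, the 4 genes of lowest unadjusted p in each list, and the 5 genes nearest to GPAT3 and to PPARG. Members and lists were chosen with earlier results of these data known. Alternatives were the background correction, the normalisation, the filter, the dye orientation, the probe, the scale, the block and each replicate left out. The number of arrays limits the precision. Tables and figures used Python 3.11.15, pandas 2.3.3 and matplotlib 3.10.9.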

Additional observations from a re-analysis of the deposited data

Results flagged for a closer look

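Of 64 sets of 4 values examined (ratios, FSH levels and control levels of the member probes, and ratios of the named genes of the lists), 5 had a sample whose gap to its nearest neighbour, as a share of the whole range, exceeded Dixon's 95% critical value. Chance gives about 5% of such sets. For GPAT3, the control level of replicate 3 was the highest by 0.896 of the range at the probe EMBV3_42168, at 11.45, and by 0.913 at EMBV3_20148, at 8.64. For CD36 the log2 ratio of replicate 3 at EMBV3_07474, at 0.20, stood above the others by 0.914 of the range. For SLC27A4 the log2 ratio of replicate 3, at 0.29, stood above the others by 0.895. For DGAT2 the FSH level of replicate 4 at the dimmer probe, at 7.08, was the highest by 0.865 of a range of only 0.09. Replicate 3 accounts for 4 of the 5, and the part its control library has in them was not tested.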

How the results depend on the processing

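With limma over replicate means, 0 probes and 0 of the 81 other lipid genes passed under every alternative to background, normalisation, filter, scale or replicates, while p under 0.05 without adjustment held for 2534 probes higher and 1922 lower in the reported fit. With the replicate block and a dye term, 751 probes were higher and 526 lower, and 3 and 1 of the lipid genes. With the replicate block and without replicate 3 these were 1399 and 1228 probes, and 6 and 4 genes; the cause was not tested. The number of members above 0 was 5 to 9 of 10, with 9 for FSH in Cy3 alone. The count of probes with a dye difference stayed within 1.5 times of 21632 in each alternative run, at 18225 to 20525 when a replicate was left out. Over 14 alternatives GPAT3 lay between 2.29 and 4.21, PPARG between -1.76 and -1.19, PLIN2 between 0.47 and 1.09 and GPAT4 between 0.19 and 0.43. Of 140 member values, 138 moved by less than 1 SD over replicates. The other 2 were CD36 at -0.53 with FSH in Cy5 alone and 0.47 with FSH in Cy3 alone. The filter, the scale and the block do not alter a mean ratio, and leaving out 1 replicate cannot move it by 1 SD. The count of 138 therefore says little about stability. The sign turned in at least 1 alternative for CD36, DGAT1, LPIN2 and PNPLA2, whose means lay within 0.06 of 0. The probes of DGAT1, DGAT2, LPIN1, LPIN2 and GPAT4 lay near the negative control limit, which limits what their ratios can show.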

Other observations

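3 further genes around lipid droplets, chosen after their values were seen, had a ratio of opposite sign in replicate 3. PLIN3, a perilipin that coats nascent droplets, stood at 10.70, 10.77, 10.10 and 10.57 in the FSH libraries of replicates 1 to 4, against 9.46, 9.03, 10.64 and 9.71 in the controls. Its log2 ratios were 1.23, 1.73, -0.54 and 0.87, with a mean of 0.82 ± 0.39 (SE, n = 4), and 1.28 without replicate 3. The control library of replicate 3 was again at the level of the FSH libraries, as for PLIN2. FITM2, a protein of droplet formation, was at -0.32, -1.34, 0.38 and -0.63, with a mean of -0.48 ± 0.28 and -0.76 without replicate 3, and its dimmer probe at -0.48, -0.76, 0.01 and -0.37. LIPA, the lysosomal acid lipase, was at -0.30, -0.51, 0.29 and -0.71, with a mean of -0.31 ± 0.17 and -0.51 without replicate 3. Its control library of replicate 3, at 9.97, lay among the other controls. With limma over the replicate means, none of these passed (adjusted p = 0.487 for PLIN3, 0.584 for FITM2 and 0.56 for LIPA). In the limma fit with the replicate block and without replicate 3, all 3 passed (adjusted p = 0.00496 for PLIN3, 0.0477 for FITM2 and 0.0182 for LIPA). That fit was added once the ratios of replicate 3 were known, so it is no independent test.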
